A study of Ovis aries with 2 samples.

Results

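The cornified envelope and its assembly were followed in single-cell transcriptomes of lamb skin, with the 7 genes FLG, CNFN, KRTDAP, ASPRV1, CST6, CRCT1 and SFN. They were chosen by name for what they are known to do in the epidermis, not for a measured value. The choice was made with earlier results of these data known. They are 7 of the 18161 genes in the table. The skin came from Hu sheep lambs at 3 days of age, from the side of the body. Cells of 3 lambs with straight wool were pooled into 1 library, and cells of 3 lambs with curly wool (labelled waved) into another. Hair follicle and whole skin suspensions were mixed before 10× Genomics capture, so interfollicular and follicle epithelium were measured together. With 1 library per wool type there is no spread between animals to test a difference against, and every interval below is a 95% interval that covers counting error only. Lamb, pool, dissociation and library differences cannot be told apart from wool type.

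Keratinocytes of the epidermis divide in the basal layer, move upward, switch from keratin KRT14 to keratins KRT1 and KRT10, and end as dead, flattened cells of the horny layer. In the last living layer, the granular layer, a protein shell is crosslinked under the membrane by transglutaminases, and lipids are attached to its outside. The follicle has comparable endings of its own. The infundibulum and the sebaceous duct, marked by KRT79, line its upper opening, and the inner root sheath (IRS) is a tube around the growing fiber that hardens and is shed. FLG encodes profilaggrin, whose processed filaggrin bundles keratin filaments. ASPRV1 encodes the aspartic protease that cuts profilaggrin. CST6 encodes cystatin M/E, an inhibitor of cathepsins and legumain in the cornification pathway. CNFN (cornifelin) and CRCT1 belong to late differentiation, KRTDAP encodes a small secreted peptide of differentiating keratinocytes, and SFN encodes 14-3-3σ, an epithelial adaptor protein that binds keratins and cell cycle regulators.

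The straight wool library held 6452 cells and 57956122 unique molecular identifiers (UMIs, 1 for each captured RNA molecule), and the curly wool library 7585 cells and 77634565 UMIs. Median depth was 7373.5 and 7495 UMIs per cell. The libraries shared 70 cell barcodes. The cells were grouped into 21 clusters without using these genes, although genes that vary with them took part. Cluster 5 (452 straight and 495 curly cells) was called suprabasal-like, with KRT1 at 12258 (straight) and 14206 (curly) UMIs per 1000000 UMIs of the cluster's cells in that library (CPM). KRT1 stood at 305 and 962 CPM in cluster 1, called basal interfollicular epidermis (IFE)-like. In what follows, a pair of values gives the straight library first and the curly library second. Cluster 5 also held KRT14 at 17459.6 and 12182 CPM, against 9623 and 14589 CPM in cluster 1, so it includes cells that keep the basal keratin. None of the class markers stood among the 10 leading genes of cluster 5, which include CNFN and FLG. Cluster 4 (477 and 504 cells) was called infundibulum or sebaceous duct-like, and KRT79-rich below, with KRT79 at 1301 and 3086 CPM against 24.2 and 63.1 CPM in suprabasal-like cells. Its 10 leading genes include KRT79, CST6, ASPRV1, KRTDAP and CRCT1. It also held KRT1 at 5087 and 5031 CPM and KRT10 at 10122 and 13438 CPM. Both keratins stood above cluster 1, where KRT10 was at 509.7 and 2061 CPM. They stood below suprabasal-like cells, where KRT10 was at 26150.3 and 30131 CPM. The name KRT79-rich therefore does not mean that these cells lack KRT1 and KRT10. Since the clusters were built on genes that vary with the 7, a high level in the cluster is a description and not a test. A low-depth cluster of 324 straight and 807 curly cells stayed unnamed.

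The 7 genes fell into 3 patterns. FLG and CNFN were concentrated in suprabasal-like cells. CST6, ASPRV1 and CRCT1 were highest in the KRT79-rich cells, and KRTDAP was high in both. SFN was spread over the keratinocyte clusters.

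FLG stood at 208 CPM (interval 196 to 221) and 873 CPM (849.7 to 898) in suprabasal-like cells. The KRT79-rich cluster had 4.42 and 20.1 CPM, and the basal IFE-like cluster 1.83 and 31.3 CPM. Suprabasal-like cells held 57.5% of all FLG UMIs of the straight library and 82.2% of those of the curly library. That placement depended on the clustering. With a stricter minimum of genes per cell the shares were 16.2% and 1.67%, and without integration of the libraries 17.4% and under 2%, since most cells rich in FLG and CNFN then joined the KRT79-rich cluster. CNFN stood at 82.7 CPM (74.8 to 91.1) and 619 CPM (599 to 639) there, against 26.7 CPM (22.9 to 30.9) and a curly level between 45.1 and 55.3 CPM in the KRT79-rich cells. In a comparison of both clusters within each library, FLG and CNFN were the 2 genes of the 7 that were higher by at least 1 on the scale of log2(CPM + 5) in suprabasal-like cells of both libraries, where 2.36% of 8800 genes were. FLG was 47.1-fold and 43.5-fold higher, and CNFN 3.10-fold and 12.4-fold. The straight CNFN call rested on few cells. Its difference of 1.47 on that scale was 0.79 without the 1 cell richest in CNFN, and -0.19 (15.9 against 18.8 CPM) without the 5 richest cells of each cluster, while the curly difference was 3.55 without its 5 richest. Against basal IFE-like cells, FLG, CNFN, KRTDAP and ASPRV1 were higher in suprabasal-like cells of both libraries (4 of the 7, where 4.17% of 6451 genes were) and none was lower (2.50%). CNFN, KRTDAP, ASPRV1, CST6 and CRCT1 were higher in KRT79-rich cells of both (5 of the 7, where 4.01% of 6927 genes were) and none was lower (2.18%).

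FLG had another place of expression. In the straight library its highest level was in IRS-like cluster 9, at 315 CPM (289.8 to 341), and this cluster stood at 60.4 CPM (54.9 to 66.2) in the curly library. CNFN stood at 2.67 and 5.43 CPM there. The cells with at least 10 FLG UMIs numbered 20 in the straight and 45 in the curly library. Of these, 12 and 28 were suprabasal-like and 7 and 12 were IRS-like. In the suprabasal-like ones KRT10 stood at 47310.3 and 16001 CPM and KRTDAP at 44806 and 61889 CPM, with KRT71, a keratin of the IRS, at 57.1 and 71.9 CPM. In the IRS-like ones KRT71 stood at 35047 and 59299 CPM and KRT25, its partner, at 42822 and 64294 CPM, with KRT10 at 189.8 and 158 CPM and KRTDAP at 281 and 229 CPM. No IRS-like FLG cell had 10 CNFN UMIs, whereas 25 of the 28 curly suprabasal-like ones did, and 3 of the 12 straight ones. Of the 7 straight IRS-like FLG cells, 2 were among the 6% of cells with the highest doublet scores, and none of the 12 curly ones was.

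CST6, the cathepsin inhibitor, reached the highest level of the 7 genes. In KRT79-rich cells it stood at 32114 CPM (31977 to 32251) and 103498 CPM (103269 to 103727), and in suprabasal-like cells at 1479.6 and 9297 CPM. The median KRT79-rich cell gave it 2644.1 and 23876.0 CPM, and the 90th percentile was 102401 and 223471 CPM. The richest cell held 20695 CST6 UMIs. ASPRV1 stood at 1151 CPM (1126 to 1178) and 2720.1 CPM (2683 to 2758) in the KRT79-rich cells against 123 and 897 CPM in suprabasal-like cells. CRCT1 was rarer, at 142 and 218 CPM against 5.50 and 69.0 CPM. These 3 of the 7 genes were lower by at least 1 on the same scale in suprabasal-like than in KRT79-rich cells of both libraries, where 2.67% of 8800 genes were.

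KRTDAP was high in both clusters, at 9179.6 and 25655 CPM in the KRT79-rich cells and 7081 and 18550.4 CPM in suprabasal-like cells. Basal IFE-like cells had 195 and 1049 CPM of it, and IRS-like cells 164 and 341 CPM. SFN had its highest level in an unnamed KRT6A-rich cluster, at 4828 and 3814 CPM. It was above 1000 CPM in matrix-like, hair shaft-like, IRS-like, basal IFE-like, suprabasal-like and KRT79-rich cells of both libraries. The lowest of these was the matrix-like cluster, at 1795 and 1202 CPM. In dermal papilla cell (DPC)-like cells SFN stood at 173 and 210.4 CPM.

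**Figure D1:**
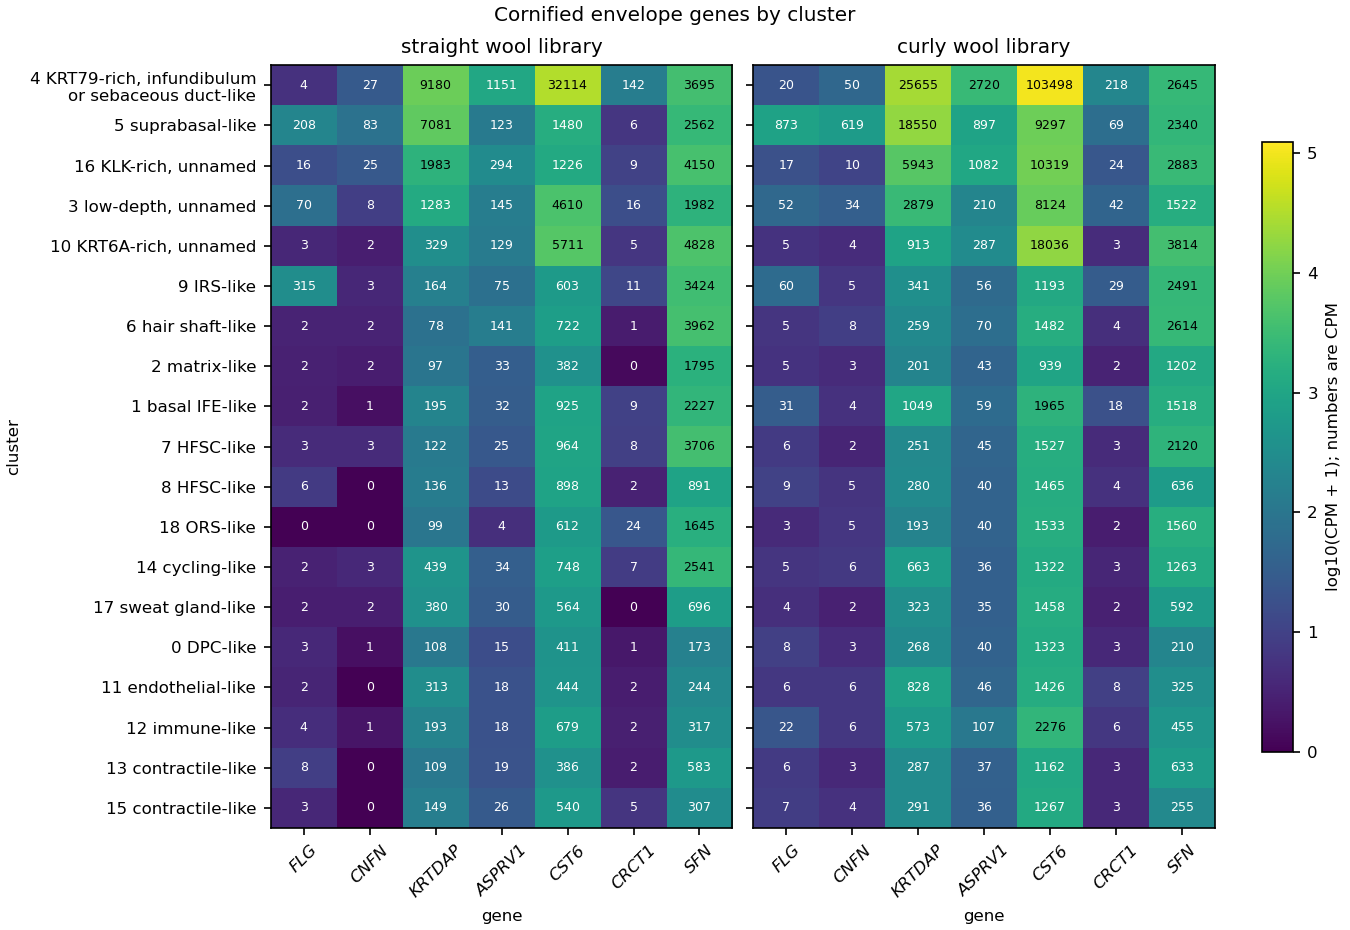
Heat map of the 7 genes (columns) in the 19 clusters with at least 25 cells in each library (rows), for the straight (left) and curly (right) wool library. Color is log10(CPM + 1) and the printed numbers are CPM. CNFN peaks in the suprabasal-like row of both libraries and FLG in that of the curly library (873 CPM), while straight FLG is highest in the IRS-like row (315 CPM), CST6 peaks at 32114 and 103498 CPM in the KRT79-rich row, and SFN is at 1202 CPM or more in the matrix-like, hair shaft-like, IRS-like, basal IFE-like, suprabasal-like and KRT79-rich rows.

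A finer clustering (resolution 0.8) split both clusters into a less and a more differentiated part. Suprabasal-like cells split into fine cluster 7 (343 straight and 374 curly cells), with KRT14 still at 21646 and 16822 CPM, and fine cluster 22 (107 and 125 cells), with KRT14 at 2061 and 632 CPM. The KRT79-rich cells split into fine cluster 5 (409 and 374 cells, with KRT14 at 5691 and 2711 CPM) and fine cluster 20 (98 and 168 cells, with KRT14 at 1048 and 353 CPM). Of the 783 cells of fine cluster 5, 712 came from the KRT79-rich cluster, and it stayed unnamed in this clustering. Of the 717 cells of fine cluster 7, 709 came from the suprabasal-like cluster. Nearly all FLG of the suprabasal-like cells was in fine cluster 22, at 956 and 3024 CPM, against 2.88 and 5.51 CPM in fine cluster 7. In this clustering it was the highest FLG level of both libraries. CNFN stood at 372 and 1806 CPM in fine cluster 22 and at 3.14 and 139 CPM in fine cluster 7. Without the 1 straight cell richest in CNFN, the straight level in fine cluster 22 was 221 CPM, against 98.8 CPM in fine cluster 20. ASPRV1 and CST6 were also high in fine cluster 22, at 513 and 3004 CPM and at 5335 and 28283 CPM.

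Fine cluster 20 held the other genes. CST6 stood at 117411 and 210384 CPM, so that it alone was over 10% of all RNA molecules captured from these cells. ASPRV1 stood at 3833 and 5698 CPM and CRCT1 at 536 and 498 CPM, whereas FLG stood at 7.24 and 41.2 CPM. KRTDAP was high in both ends, at 20789 and 44069.9 CPM in fine cluster 22 and 23508 and 43332 CPM in fine cluster 20. A high KRTDAP level thus went with the highest FLG and CNFN levels in one group of cells and with the highest CST6, ASPRV1 and CRCT1 levels in the other. SFN ranged only from 1834 to 3717 CPM over the 4 fine clusters and both libraries.

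**Figure D2:**
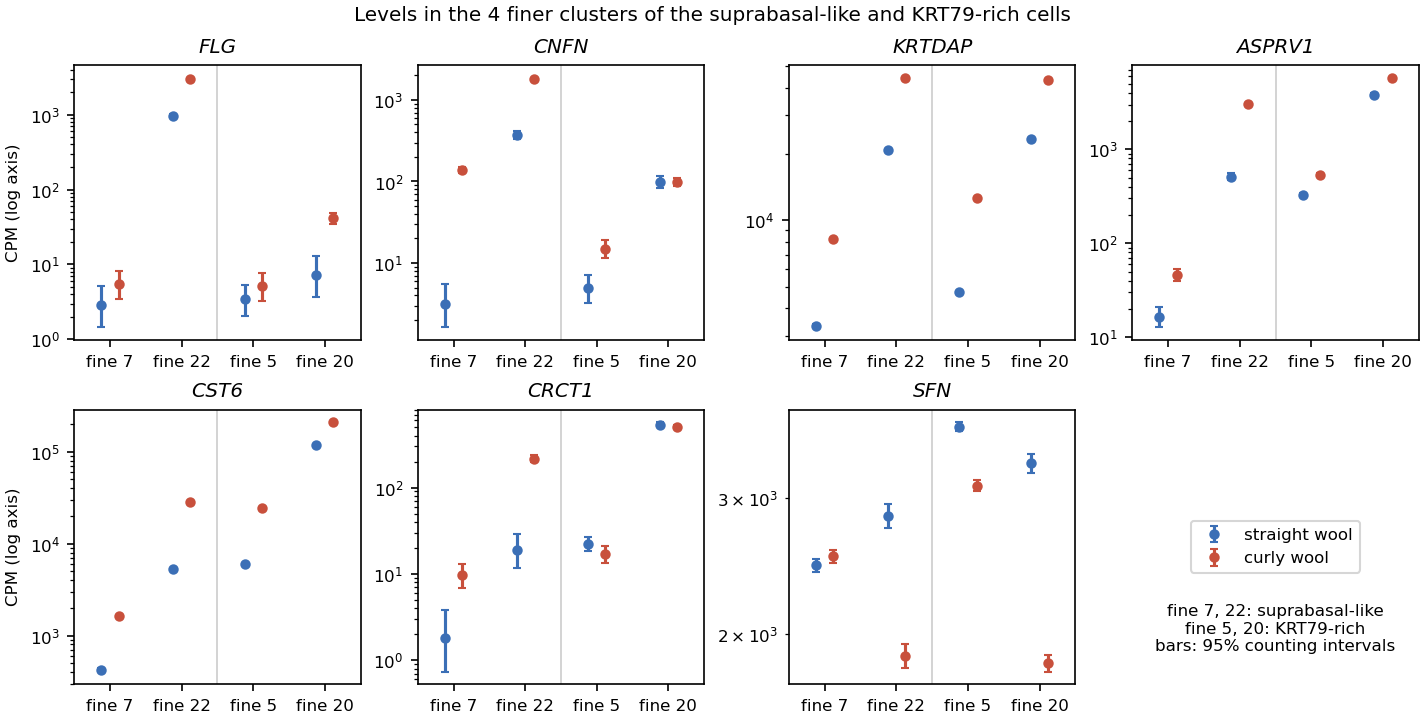
CPM of each gene (log axis) in fine clusters 7 and 22 (suprabasal-like) and 5 and 20 (mostly from the KRT79-rich cells). Straight wool is in blue and curly wool in red, with bars for the 95% counting interval. FLG is highest in fine cluster 22 at 956 and 3024 CPM, CRCT1 peaks in fine cluster 20 at 536 and 498 CPM, and KRTDAP stands at 20789 and 44069.9 CPM in fine cluster 22 and 23508 and 43332 CPM in fine cluster 20.

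Few cells carried most of the RNA of the late genes. The 5 cells with the most FLG UMIs held 60.1% of the FLG UMIs of the straight library and 49.7% of those of the curly library. For CNFN the top 5 cells held 49.8% and 20.1%, for CRCT1 35.0% and 27.0%, for ASPRV1 14.5% and 15.9%, for CST6 14.2% and 8.19%, for KRTDAP 6.89% and 4.27%, and for SFN 1.55% and 1.08%. Single cells could set a cluster's value. In straight IRS-like cells, 332 of the 590 FLG UMIs came from 1 cell, and in curly basal IFE-like cells 128 of 162 did. The straight cell richest in CNFN held 161 of the 406 CNFN UMIs of its suprabasal-like cluster. It had no UMI of KRT1, KRT10 or FLG but 107 UMIs of MMP7, a metalloproteinase of glandular epithelium, and without integration of the libraries it joined a cluster called sweat gland-like.

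**Figure D3:**
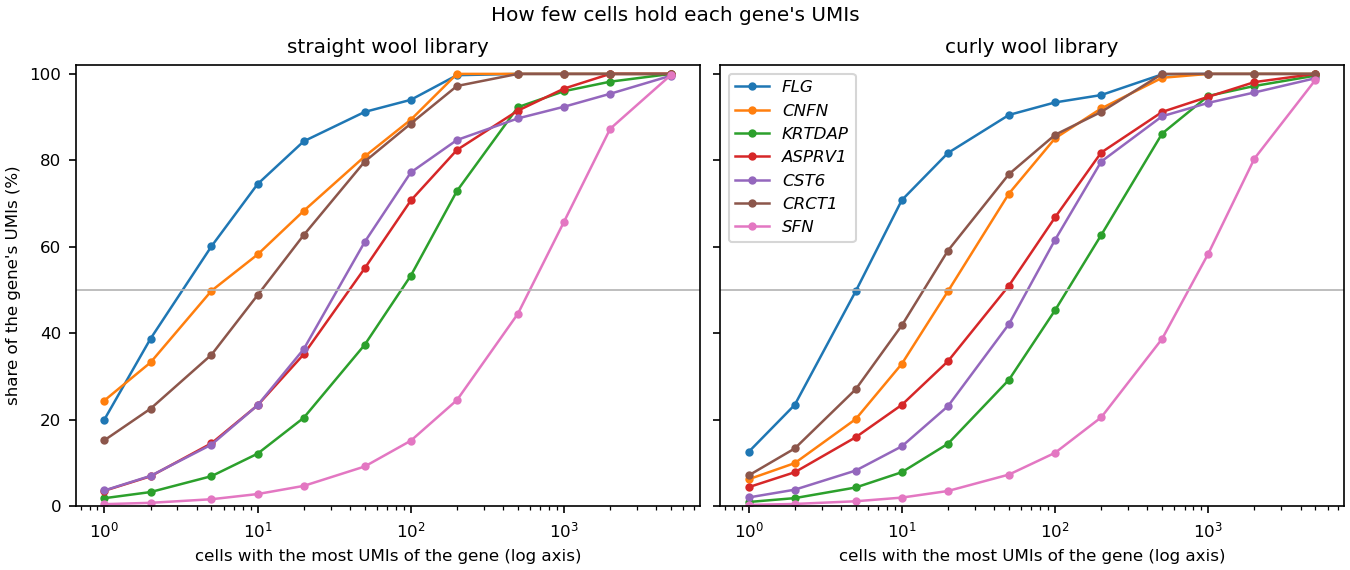
Share of each gene's UMIs (percent) held by the cells with the most UMIs of that gene, against the number of such cells on a log axis, for the straight (left) and curly (right) wool library. The FLG curve is the steepest, with 60.1% and 49.7% in 5 cells, and the SFN curve the flattest, with 1.55% and 1.08%.

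Shares of cells with a UMI have to be read beside cells that should lack these genes. CST6 gave a UMI in 93.1% and 99.4% of all cells (66.4% and 90.4% when each cell was thinned to 2000 UMIs, which left out 1037 and 1533 shallower cells). Among DPC-like fibroblasts it was still seen in 88.8% and 98.9%, at median depths of 5976 and 4272.5 UMIs and levels of 411 and 1323 CPM. KRTDAP was seen in 41.2% and 63.4% of DPC-like cells and ASPRV1 in 8.73% and 15.7%. For each 100 CST6 UMIs, the KRT79-rich cells held 28.6 and 24.8 KRTDAP UMIs, DPC-like cells 26.2 and 20.2, immune-like cells 28.5 and 25.2, and both contractile-like clusters between 23.0 and 28.3. Other clusters differed from this. The endothelial-like cells held 70.5 and 58.1, the sweat gland-like cells 67.4 and 22.1, and both hair follicle stem cell-like clusters between 12.7 and 19.1. The source of these UMIs was not tested. The shares are treated as background, and no expression in dermal cells is drawn from them. CST6 at 382 and 939 CPM in matrix-like cells was below the level of DPC-like cells and is read in the same way. SFN stood at 42.1 and 15.9 UMIs per 100 CST6 UMIs in DPC-like cells against 470.4 and 128 in matrix-like cells, far above it.

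Between the wool types, 6 of the 7 genes were higher and SFN lower in the curly library over all cells. FLG stood at 30.7 CPM (29.3 to 32.1) in the straight and 79.9 CPM (77.9 to 81.9) in the curly library, a log2 ratio of 1.38. In the same order, CNFN stood at 11.4 and 55.5 CPM (log2 ratio 2.28), KRTDAP at 1786 and 4419.9 CPM (1.31) and ASPRV1 at 179 and 425 CPM (1.25). CST6 stood at 4454 and 13596 CPM (1.61), CRCT1 between 18.8 and 21.2 and between 32.1 and 34.7 CPM (0.74) and SFN at 2314 and 1906 CPM (-0.28). Thus 5 of the 7 were higher by at least 1 in curly cells, where 3.24% of 13196 genes were, and none was lower by as much, where 6.90% were. As a mean of CPM per cell, 4 of the 7 were, since FLG then stood at 0.54. The median over the 7 was 1.31 and the median of all genes -0.18. With TMM scaling, which takes out that shift, SFN stood at -0.10.

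The KRT79-rich cluster made up 7.39% and 6.64% of the cells of the libraries and the suprabasal-like cluster 7.01% and 6.53%. Fine cluster 20 was as large as 20.5% of the straight and 33.3% of the curly KRT79-rich cells, and fine cluster 22 as large as 23.7% and 25.3% of the suprabasal-like cells. In the most differentiated parts, the log2 ratio of curly over straight was 1.66 (1.56 to 1.76) for FLG and 2.28 (2.13 to 2.44) for CNFN in fine cluster 22. In fine cluster 20 it was 0.84 for CST6, 0.57 for ASPRV1 and 0.88 for KRTDAP, while the intervals of CRCT1 (-0.11, -0.23 to 0.02) and CNFN (-0.00, -0.29 to 0.29) held 0. Without the straight cell that bore MMP7, the CNFN ratio in fine cluster 22 was 3.03 (2.84 to 3.23).

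Within suprabasal-like cells most differences were larger than over all cells. The log2 ratio of curly over straight was 2.07 (1.97 to 2.17) for FLG, 2.90 (2.76 to 3.06) for CNFN, 1.39 (1.37 to 1.41) for KRTDAP, 2.87 (2.74 to 2.99) for ASPRV1, 2.65 (2.62 to 2.69) for CST6 and 3.65 (3.09 to 4.27) for CRCT1. SFN stood at -0.13 (-0.17 to -0.10), within 0.1 of the median of all genes. Thus 6 of the 7 were higher by at least 1, where 4.94% of 6451 genes were, and none was lower by as much, where 4.46% were, and the median was 2.65 against -0.09 for all genes. Under the stricter minimum of genes only 3 of the 7 were higher by at least 1 (CNFN, CST6 and CRCT1) and FLG was lower by more than 1, and without integration 4 were, with KRTDAP. In these settings the ratio turned to -1.40 and -0.99 for FLG and to 0.19 and 0.29 for SFN, and was 0.79 and 0.75 for ASPRV1. In the KRT79-rich cells 4 of the 7 were higher, where 3.06% of 6927 genes were, and none was lower, where 5.56% were. FLG stood at 2.18 (1.60 to 2.81), CST6 at 1.69 (1.68 to 1.70), KRTDAP at 1.48, ASPRV1 at 1.24, CNFN at 0.91 (0.64 to 1.17), CRCT1 at 0.61 (0.50 to 0.73) and SFN at -0.48 (-0.51 to -0.46), with the median of all genes at -0.25.

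With all cells kept, the IRS-like cells went the other way for the profilaggrin gene. FLG was lower in curly IRS-like cells, at a log2 ratio of -2.38 (-2.56 to -2.20). ASPRV1 stood at -0.43 (-0.71 to -0.15), an interval that holds the median of all genes there, -0.24. KRTDAP stood at 1.05, CRCT1 at 1.38 and CST6 at 0.98. Of the 6 genes with enough UMIs there, 2 were higher and 1 lower by at least 1, where 1.46% of 5215 genes were higher and 3.13% lower. In hair shaft-like cells ASPRV1 was the 1 gene of 4 that was lower by as much, at 141 and 70.2 CPM. KRTDAP and CST6 were higher there (1.73 and 1.04), where 2.27% of 6557 genes were lower and 1.78% higher. KRTDAP stood at 78.4 and 259 CPM in hair shaft-like and 164 and 341 CPM in IRS-like cells, against 108 and 268 CPM in DPC-like cells. CST6 stood at 722 and 1482, 603 and 1193, and 411 and 1323 CPM in the same order. These KRTDAP and CST6 levels are not set apart from background RNA, and their ratios are not read as a difference of these cells. The IRS-like values rested on few cells. Without the 5 IRS-like cells richest in the gene in each library, FLG stood in IRS-like cells at 21.6 and 26.7 CPM (0.30, -0.20 to 0.84) and ASPRV1 at 25.1 and 43.8 CPM (0.80, 0.35 to 1.29). The lower FLG level of curly IRS-like cells was therefore not seen outside those few cells. In hair shaft-like cells, the ASPRV1 ratio without the 5 richest cells of each library was -0.93 (-1.12 to -0.74). In suprabasal-like cells the ratio without the top cells was 2.67 for FLG, 4.93 for CNFN, 2.58 for ASPRV1, 3.53 for CST6 and 3.07 for CRCT1. Without the single MMP7-bearing cell, the CNFN ratio was 3.63 (3.44 to 3.82).

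CST6 and KRTDAP were also higher in curly cells that should not make them. In DPC-like cells the log2 ratio was 1.69 (1.62 to 1.75) for CST6 and 1.31 (1.17 to 1.45) for KRTDAP, in endothelial-like cells 1.68 and 1.40, and in immune-like cells 1.75 and 1.57. Over all cells it was 1.61 and 1.31, so these levels moved by about as much as the whole library. Low CST6, KRTDAP and ASPRV1 levels outside the keratinocytes that make them are therefore not read as a difference of those cells between wool types. SFN differed from this. It was lower in the curly library in hair shaft-like (-0.60), basal IFE-like (-0.55), IRS-like (-0.46) and cycling-like (-1.01) cells. It was higher in DPC-like (0.28, 0.15 to 0.42), endothelial-like (0.42) and immune-like (0.52) cells. Its levels there were low, at 173 and 210.4, 244 and 325, and 317 and 455 CPM. Unlike those of CST6 and KRTDAP, these ratios did not match the ratio over all cells, which was -0.28 for SFN. The source of these low SFN levels was not tested, and they are not read as a difference of those cells.

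**Figure D4:**
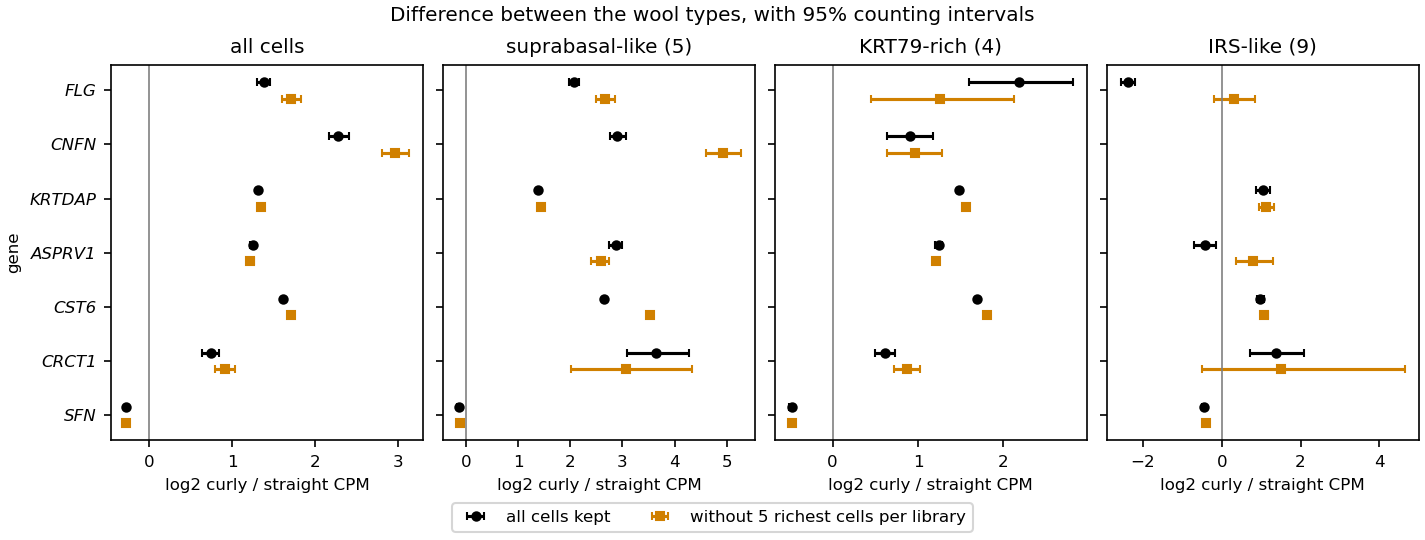
Log2 ratio of curly over straight CPM of each gene over all cells and in suprabasal-like, KRT79-rich and IRS-like cells, with all cells kept (black circles) and without the 5 cells richest in the gene in each library (orange squares), and bars for the 95% counting interval. In IRS-like cells FLG moves from -2.38 to 0.30, while in suprabasal-like cells CNFN moves from 2.90 to 4.93. CNFN in IRS-like cells had too few UMIs for a ratio.

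Cells were also matched on how far they had moved from the basal keratin program, by the share of KRT1 among the KRT1 and KRT14 UMIs of each cell with at least 10 of these. Among suprabasal-like cells, 154 of 441 straight (34.9%, 30.5 to 39.6) and 260 of 481 curly cells (54.1%, 49.5 to 58.6) had a KRT1 share of at least 0.8. In the KRT79-rich cluster, 53.0% and 68.6% did. A share under 0.05 was found in 33.1% and 26.2% of these suprabasal-like cells and in 12.7% and 4.65% of these KRT79-rich cells. KRTDAP went up with the KRT1 share in both libraries, from 238 to 16604 CPM over the 5 bins in straight and from 253 to 27863 CPM in curly suprabasal-like cells. In the straight library FLG was at most 4.03 CPM in the 4 lower bins and stood at 575 CPM in the highest. In the curly library it stood at 2689 CPM in the fourth bin, of 34 cells, and at 704 CPM in the highest.

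In the highest bin, most ratios were smaller than in the whole cluster, but in suprabasal-like cells the bins left out UMIs of some genes unequally. In suprabasal-like cells the log2 ratio was 0.29 (0.18 to 0.40) for FLG, 0.75 for KRTDAP, 0.93 for ASPRV1, 0.96 for CRCT1 and 1.76 for CST6, while CNFN stayed at 2.80 (2.60 to 3.00). In KRT79-rich cells it was -0.06 (-0.12 to -0.00) for ASPRV1, 0.66 for CST6, 0.88 for KRTDAP and -1.18 (-1.36 to -0.99) for CRCT1. In KRT79-rich cells with a KRT1 share under 0.2, CST6 stood at 3.99 and 4.05 in the 2 lowest bins, which held 51 and 45 straight but only 20 and 22 curly cells. The bins held 980 of the 1022 FLG UMIs of straight but 3342 of the 5098 of curly suprabasal-like cells, and the other FLG UMIs lay in cells with fewer than 10 UMIs of these keratins. For ASPRV1 they held 588 of 604 straight but 2891 of 5234 curly UMIs, and for CRCT1 27 of 27 but 106 of 403. In suprabasal-like cells the smaller ratios of these 3 genes are therefore not read as an effect of matching. In KRT79-rich cells the bins held 5670 of 7551 straight and 15152 of 20614 curly ASPRV1 UMIs. For CRCT1 they held 876 of 933 and 1340 of 1650 there. Why the ratios were smaller in that cluster was not tested.

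**Figure D5:**
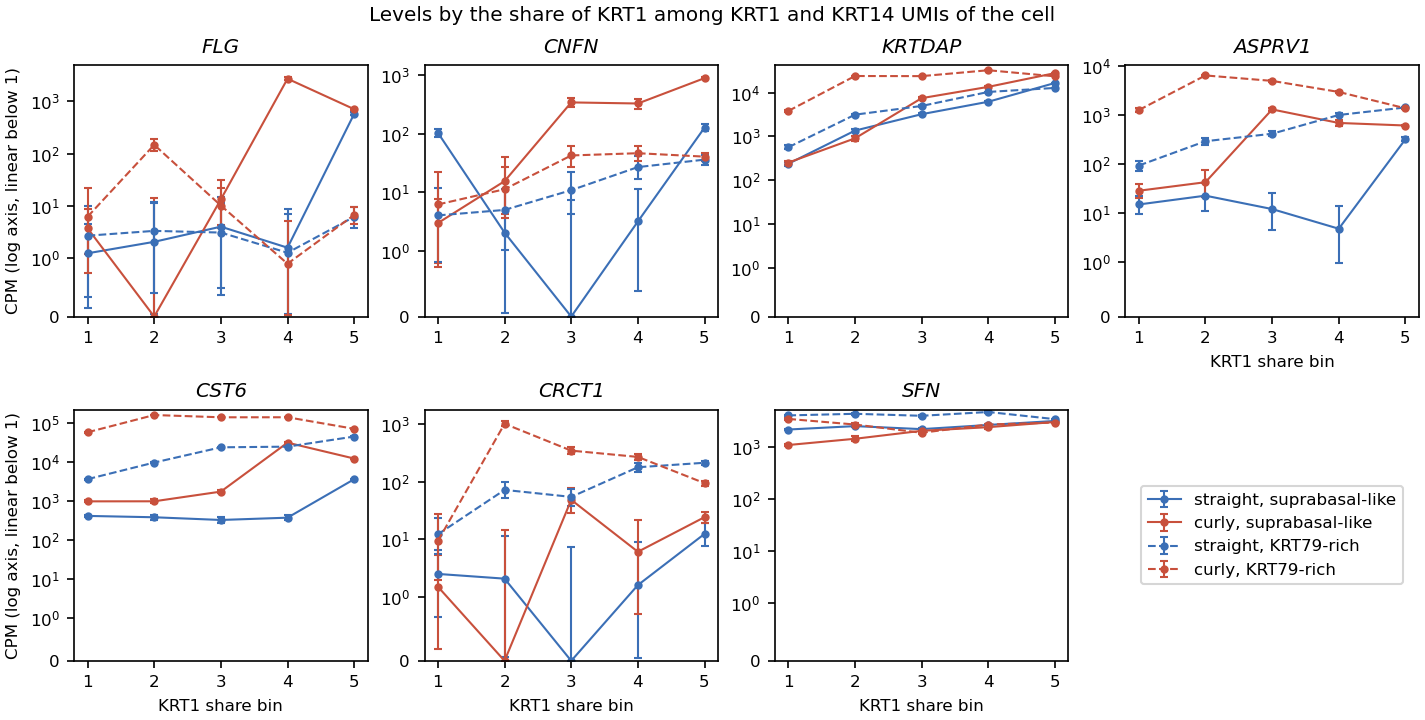
CPM of each gene (log axis, linear below 1) in 5 bins of the share of KRT1 among KRT1 and KRT14 UMIs (bin edges 0.05, 0.2, 0.5 and 0.8), for suprabasal-like (solid) and KRT79-rich (dashed) cells of the straight (blue) and curly (red) wool library, with 95% counting intervals. KRTDAP goes up with the KRT1 share in suprabasal-like cells of both libraries, SFN lies between 1073 and 4616 CPM throughout, and the CNFN point of 103 CPM in the first straight bin comes from the single MMP7-bearing cell.

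The other genes of the cornified envelope pathway were described by lists. Their counts stand beside 4.94% of all 6451 genes higher and 4.46% lower by at least 1 in suprabasal-like cells, with a median of -0.09. List values were computed for the main clustering only, and the ratios of the 7 genes in suprabasal-like cells depended on the clustering. Some listed genes were not in the table. It held 25 of 32 listed proteases and inhibitors, 24 of 28 barrier lipid genes and 25 of 31 other late epidermal genes. Of 32 listed scaffold proteins only 12 were in the table, so their values cover a minority of that list. Among those 12, 10 had at least 100 UMIs in suprabasal-like cells. Of these, 5 were higher by at least 1 in the curly library and none was lower, with a median of 1.74, against 4.94% and 4.46% of all genes. LOR, which encodes loricrin, a main scaffold protein of the envelope, stood at 8.35 and 1968 CPM, a log2 ratio of 7.88 (7.44 to 8.36). Only 146 of the 495 curly cells had a LOR UMI, and 37 had at least 10. The richest cell held 2746 of the 11488 curly LOR UMIs. In KRT79-rich cells LOR stood at 112 and 1029 CPM, and 1 cell held 417 of the 732 straight UMIs. Under the stricter minimum of genes and without integration, LOR was first among the 10 leading genes of the KRT79-rich cluster. Its ratio in suprabasal-like cells is therefore given for the main clustering only. CSTA (cystatin A) stood at 58.2 and 799.8 CPM, SPRR4, a small proline-rich envelope protein, at 49.3 and 292 CPM, and SCEL (sciellin) at 89.8 and 168 CPM.

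Of 9 transglutaminases and peptidylarginine deiminases in the table, 2 had at least 100 UMIs. TGM3 stood at 113 and 60.3 CPM (-0.91), and TGM1 at 9.16 and 32.6 CPM (1.83). TGM5 and PADI1 stayed under 3 CPM. Of 20 proteases and inhibitors of the horny layer with enough UMIs, 6 were higher and 2 lower by at least 1 in the curly library, with a median of 0.50, where 4.94% and 4.46% of all genes were. KLK7, a protease that opens corneodesmosomes, stood at 303 and 1024 CPM and KLK5 at 131 and 452 CPM. SERPINB5 did not differ by more than its counting error, at 300.4 and 291 CPM, and CST3 (cystatin C) was lower, at 4278 and 2370.3 CPM.

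Of 14 barrier lipid genes with enough UMIs in suprabasal-like cells, 9 were higher by at least 1 (all genes 4.94%) and none lower (4.46%). The 4 with the most UMIs were SULT2B1, the cholesterol sulfotransferase (143 and 276 CPM), ELOVL1, a fatty acid elongase (89.0 and 193 CPM), ACER1, a ceramidase (51.9 and 140.2 CPM), and UGCG, which makes glucosylceramide (34.6 and 78.0 CPM). Of 18 desmosome and junction genes, 3 were higher (all genes 4.94%) and none lower (4.46%), with a median of 0.29. PERP stood at 3717 and 4516 CPM, DSP (desmoplakin) at 796 and 977 CPM, JUP (plakoglobin) at 414 and 459.9 CPM and CLDN4, a claudin, at 262 and 384 CPM.

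Of 7 suprabasal keratins, 5 were higher and none lower, with a median of 1.38, beside 4.94% and 4.46% of all genes. The most abundant ones differed least. KRT10 stood at 26150.3 and 30131 CPM (0.20) and KRT1 at 0.21, while KRT77 stood at 299.5 and 973 CPM (1.70) and KRT2 at 224 and 635 CPM. Among 23 regulators of differentiation, 4 were higher and 1 lower, with a median of 0.02. The share that was lower is near the 4.46% of all genes. HOPX stood at 1.14, KLF4 at 0.18, GATA3 at 0.30 and HES1 at -0.44. Of 20 other late epidermal genes, 8 were higher (all genes 4.94%) and 1 lower, a share near the 4.46% of all genes, with a median of 0.62. The lower one was AQP3, an aquaglyceroporin of the living epidermis, at 5357 and 1583 CPM (-1.76). FABP5 stood at 0.13, LY6D at 0.45 and LYPD3 at 0.45. In KRT79-rich cells most list medians were smaller (all genes 3.06% higher, 5.56% lower). Of scaffold genes 3 of 8 were higher by at least 1 (median 0.72) and of barrier lipid genes 5 of 15 (0.49). Of proteases and inhibitors 2 of 16 were (0.14) and of keratins 3 of 7 (0.66), with none lower in these lists. Of 21 junction genes 1 was higher and 2 lower (-0.29). Of 19 other late genes it was 4 and 1 (0.32), and of 22 regulators none and 2 (0.06).

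The genes with the most similar levels were sought over 39 points, each a cluster in 1 library, among 11475 genes, by Pearson's r of log2(CPM + 5). The points share libraries and background RNA, so the values describe likeness and carry no p. Nearest to FLG were VSIG10L (0.851), ELOVL4, an elongase for very long acyl chains (0.837), and LOC101105840 (0.774). Nearest to CNFN were LOC101103602 (0.920), SERPINA12, a serpin (0.889), and KRT77 (0.854). KRTDAP and ASPRV1 shared their 2 nearest genes, LY6G6C (0.934 and 0.921) and KLK7 (0.901 and 0.886). SPRR4 (0.889) was the third for KRTDAP and CST6 (0.878) for ASPRV1. CST6 was nearest to ASPRV1 (0.878), KRT79 (0.864) and LOC101113251 (0.863), and CRCT1 to PSAPL1 (0.861), LOC101102105 (0.850) and ADGRF2 (0.842). SFN was nearest to PKP3, a desmosomal plakophilin (0.899), TMEM159 (0.879) and REEP4 (0.878). Among the 7 genes themselves r ran from 0.28 for FLG with SFN to 0.88 for ASPRV1 with CST6.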

How the data were processed

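Per the file headers and the study's methods, the authors aligned reads to Oar_rambouillet_v1.0 with Cell Ranger and deposited a natural log scale, ln(1 + UMIs per 10000 UMIs of the cell), for 14037 cells, fewer than the study states. The Cell Ranger version is 3.0.2 in the submitters' processing notes, and the study's methods give another. UMIs were recovered from the deposited ln values: 100% of 28552149 values above 0 came out whole within 0.01. Cells held at least 500 UMIs and between 302 and 3999 genes. A count of 3 UMIs equals 0.0518 CPM (straight) and 0.0386 CPM (curly).

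Cells were integrated with Seurat 5.3.0 in R 4.3.3 (2000 variable genes, 30 dimensions, the lowest resolution giving at least 19 clusters, which gave 21). The rule's genes were kept out of the variable genes. Clusters were named "-like" from markers by limits on score and detection set after the data were seen (mean log2 fold of at least 1.0, and 3 markers in at least 10% of cells). Doublet scores (Scrublet in scanpy 1.11.5) called 1.05% of straight and 0.0264% of curly cells by threshold, which did not work, so no cell was removed and the highest 6% were left out as an alternative. UMIs were summed per library and cluster in Python 3.11.15 and CPM given with Poisson (exact) intervals. Shares have exact Clopper-Pearson intervals, and each ratio an exact binomial one, from how its UMIs divide between the libraries. A ratio of a cluster needed at least 100 UMIs in both libraries together, and one in finer clusters, keratin bins or without top cells at least 20. Calculations were tested on simulated data.

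The members and lists were chosen with earlier results of these data known. Named genes are all members, the 3 nearest genes of each and, of each list, the 4 with the most UMIs in suprabasal-like cells, with class markers and genes of single cells named after their values were seen. Another 2 genes of the rule are not reported here. Of the listed genes missing by symbol, 7 were found through RefSeq names (ARS-UI_Ramb_v3.0), among them SPRR4. No sequence was used here.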

Additional observations from a re-analysis of the deposited data

Results flagged for a closer look

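FLG differed in direction between cell classes. Its log2 ratio of curly over straight was -2.38 in IRS-like cells, while it was at least 1 in 3 named clusters, among them the suprabasal-like cells at 2.07 and the KRT79-rich cells at 2.18. The difference between these clusters was not tested, since each wool type is 1 library. Of the 590 straight IRS-like FLG UMIs, 332 lay in 1 cell, and without the 5 richest cells of each library the ratio was 0.30 (-0.20 to 0.84).

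ASPRV1 also differed in direction. Hair shaft-like cells had 141 CPM of it in the straight library and 70.2 CPM in the curly one (log2 ratio -1.0, -1.17 to -0.84), and -0.93 without the 5 richest cells of each library. It was at least 1 in 4 named clusters, the suprabasal-like (2.87), KRT79-rich (1.24), DPC-like (1.36) and 1 hair follicle stem cell-like cluster (1.58, from 13 and 118 UMIs). The last 2 had low levels, which are read as background. This difference was not tested either.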

How the results depend on the processing

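No paired analysis was possible because each wool type has 1 library. Over all cells, the median log2 ratio of 1.31 became 1.29 in cells that passed a stricter minimum of genes and without marked doublets, 1.2 as a mean of CPM per cell, 1.49 with TMM scaling and 1.43 after thinning to 2000 UMIs. With alternatives chosen after seeing the data, it was 1.35 without the 5 richest cells of each gene and 1.32 with CST6 left out of the totals.

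In suprabasal-like cells the median depended on which cells carried that name. From 2.65 it went to 0.79 in cells that passed a stricter minimum of genes and 1.32 without integration, where most cells rich in FLG and CNFN joined the KRT79-rich cluster. There FLG reversed to -1.40 and -0.99, and SFN to 0.19 and 0.29. It was 2.19 without marked doublets, 2.53 at resolution 1.2, 1.90 as a mean of CPM per cell, 2.77 with TMM scaling and 2.16 after thinning. The number of the 7 genes highest in suprabasal-like cells in both libraries was 1 (CNFN). It was 0 in cells that passed a stricter minimum of genes, at resolution 0.8 and without integration, 3 without marked doublets and 2 at resolution 1.2. At resolution 0.8 the suprabasal-like class pools fine clusters 7 and 22, and the KRT79-rich class is fine cluster 20 alone. Fine cluster 22 by itself was highest for FLG and CNFN in both libraries. KRTDAP, ASPRV1, CST6 and CRCT1 were the 4 genes highest in KRT79-rich cells in each of the 7 alternatives, except without marked doublets, where KRTDAP was not. Of the 7 genes, 6 were higher by at least 1 in suprabasal-like cells, against 3 with the stricter minimum, 4 without integration and 5 as a mean of CPM per cell. Of 126 values for single genes, 46 stayed within the counting interval, 76 left it in the same direction and 4 reversed. Depth limits FLG, CNFN and CRCT1 in clusters other than those named.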
